A study of Rattus norvegicus with 6 samples.

Results

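The SLC1 family of sodium-coupled amino acid transporters was followed across primary rat brain astrocytes treated with β-hydroxybutyrate (BHB) and control astrocytes. The members were the rows of the deposited expression table with the symbols Slc1a1, Slc1a2, Slc1a3, Slc1a4 and Slc1a5, and all 5 were found among its 22608 genes. Poly(A) RNA was sequenced from 3 libraries of BHB-treated cells, with a dose of 2 mM given in the column names, and 3 libraries of control cells. The sources used here do not give the rats' strain and age, the time in BHB or the culture steps. Separate cultures are not recorded for the replicates either, so a p-value here speaks only of the spread among these libraries, which may be technical. Values are FPKM (fragment numbers scaled by transcript length and library size), a scale on which genes of different length can be compared as far as transcripts were combined alike.

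Glutamate released at synapses is cleared largely by astrocytes, through 2 high-affinity carriers of this family, GLAST (Slc1a3) and GLT-1 (Slc1a2). Both move glutamate inward on the sodium gradient, with potassium returned outward. GLAST is the carrier of radial glia, Bergmann glia and young or cultured astrocytes, while GLT-1 prevails in the mature forebrain, and EAAC1 (Slc1a1) is mostly neuronal and also takes up cysteine. The other branch of the family, ASCT1 (Slc1a4) and ASCT2 (Slc1a5), exchanges neutral amino acids. ASCT1 handles serine, alanine and cysteine, and ASCT2 carries glutamine as well. The study's title names glutamate uptake and transporter expression under BHB as its subject.

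Of the 5 genes, Slc1a3 alone passed the test between BHB and control, and it was also the most abundant. Slc1a3 had 468.0, 445.4 and 452.2 FPKM in BHB libraries 1 to 3, against 204.7, 197.0 and 206.4 FPKM in control libraries 1 to 3. The groups lay far apart, and the lowest BHB library stood 2.16-fold above the highest control. The means were 455.2 ± 11.6 FPKM with BHB and 202.7 ± 5.0 FPKM in controls (SD, n = 3 each), a ratio of 2.25 and a gain of 252.5 FPKM. The log2 fold change, BHB over control on the log2(FPKM + 1) scale, was 1.16 (SE 0.0400, 95% interval 1.07 to 1.26), with an adjusted p of 1.64e-05 from limma over all 12373 genes that reached 1 FPKM in 3 or more libraries. Of those genes 7, or 0.0566%, passed at an adjusted p under 0.05, against 1 of the 5 SLC1 genes. The exact two-sided permutation p for the same difference was 0.1, which is the smallest that 3 against 3 libraries can give. In a bulk sample, more transcript per cell and more cells of the type that makes it cannot be told apart.

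**Figure D1:**
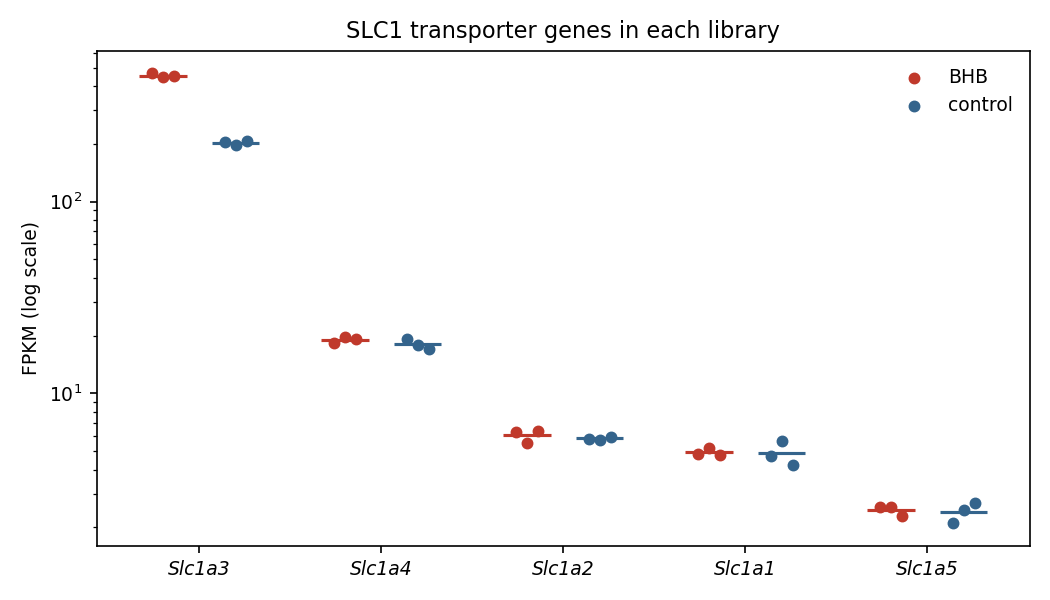
FPKM of the 5 SLC1 genes, on a log axis, in 3 BHB libraries (red, left) and 3 control libraries (blue, right), each point a library and each line a group mean. Slc1a3 stands apart between groups, at 445.4 to 468.0 FPKM with BHB and 197.0 to 206.4 FPKM in controls, while the points of the other genes overlap.

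Among genes at least as abundant, the change of Slc1a3 stood alone in size. Its mean over the 6 libraries ranked 127 of the genes tested, above 99.0% of them. The other 126 genes that were at least as abundant had log2 fold changes of at most 0.34 in size, and none passed in limma. That cut is the mean of Slc1a3 itself, which its BHB values raise, and other cuts are not given here. Of all genes tested, 12 (0.0970%) had a log2 fold change of 1 or more in size. By its p, Slc1a3 ranked 1 of all genes tested, and by its log2 fold change it ranked 7. The spread of Slc1a3 within groups was small, since 94.1% of the genes tested had a larger residual SD than its 0.0361 on the log2 scale.

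**Figure D2:**
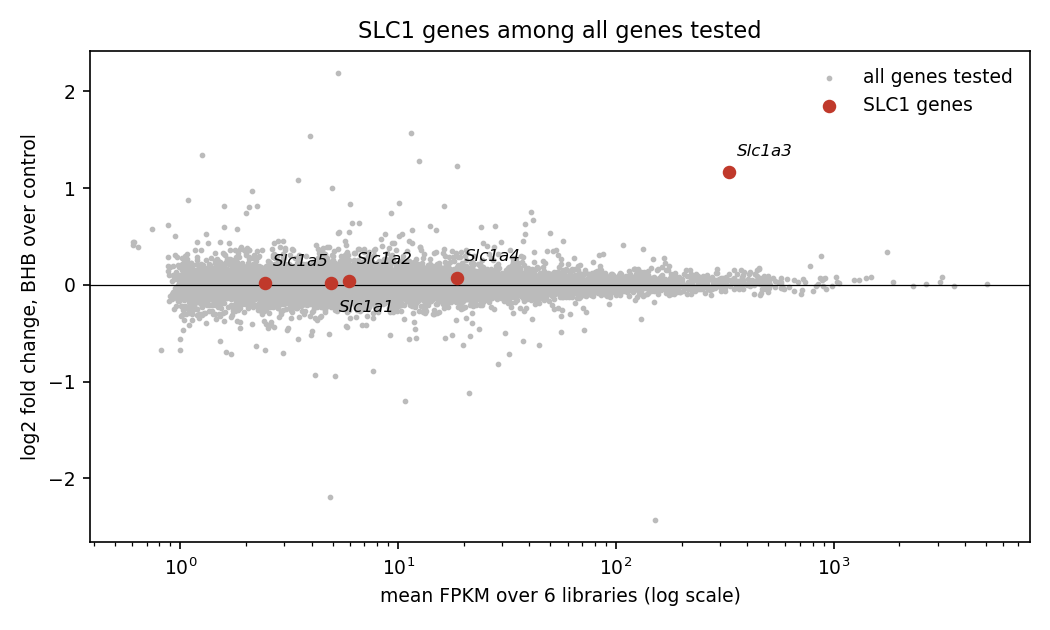
Log2 fold change, BHB over control, against the mean FPKM over 6 libraries (log axis), for 12373 genes tested (grey) and the SLC1 genes (red). Slc1a3 lies at 1.16, the other genes at least as abundant have log2 fold changes of at most 0.34 in size. The other SLC1 genes lie between 0.02 and 0.07.

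Slc1a2, the gene of GLT-1, was present at a low level and did not pass. It had 6.28, 5.49 and 6.40 FPKM in BHB libraries 1 to 3, against 5.82, 5.75 and 5.91 FPKM in control libraries 1 to 3. The BHB values fell on both sides of the narrow control range, with BHB 2 below all controls and the other 2 above them. Slc1a2 averaged 6.06 ± 0.496 FPKM with BHB and 5.83 ± 0.0836 FPKM in controls (SD, n = 3 each). The log2 fold change was 0.05 with a 95% interval of -0.12 to 0.21 (limma adjusted p = 0.943, exact permutation p = 0.4). That interval runs from 0.920-fold to 1.16-fold on the FPKM + 1 scale.

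Slc1a1, the gene of the cysteine and glutamate carrier EAAC1, overlapped between groups. It had 4.80, 5.22 and 4.79 FPKM in BHB libraries 1 to 3, against 4.74, 5.62 and 4.25 FPKM in control libraries 1 to 3. All BHB values lay inside the control range, which runs between control 3 and control 2. The log2 fold change was 0.02 (95% interval -0.19 to 0.24, limma adjusted p = 0.980, exact permutation p = 0.8), and it changed sign without control 3 (-0.05) or without BHB 2 (-0.01). The coefficient of variation between libraries was 4.94% with BHB and 14.3% in controls, where control 2 was high and control 3 low.

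The exchanger genes overlapped between groups and did not pass. Slc1a4, the gene of the serine and alanine exchanger ASCT1, had 18.4, 19.7 and 19.1 FPKM in BHB libraries 1 to 3, against 19.2, 17.98 and 17.1 FPKM in control libraries 1 to 3. The ranges overlapped, since control 1 was higher than BHB 1 and BHB 3. Its means were 19.1 ± 0.655 FPKM with BHB and 18.1 ± 1.08 FPKM in controls (SD, n = 3 each). Between groups the log2 fold change was 0.07 (95% interval -0.06 to 0.21, limma adjusted p = 0.901, exact permutation p = 0.3).

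Slc1a5, the gene of the glutamine exchanger ASCT2, was the least abundant member. It had 2.55, 2.54 and 2.30 FPKM in BHB libraries 1 to 3, against 2.10, 2.47 and 2.69 FPKM in control libraries 1 to 3. The BHB values all lay within the control range. Its log2 fold change was 0.02 (95% interval -0.18 to 0.23, limma adjusted p = 0.980, exact permutation p = 0.8) and turned to -0.05 without control 1. At this level the added 1 FPKM shrinks the estimate, and with a pseudocount of 0.1 it was 0.03.

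**Figure D3:**
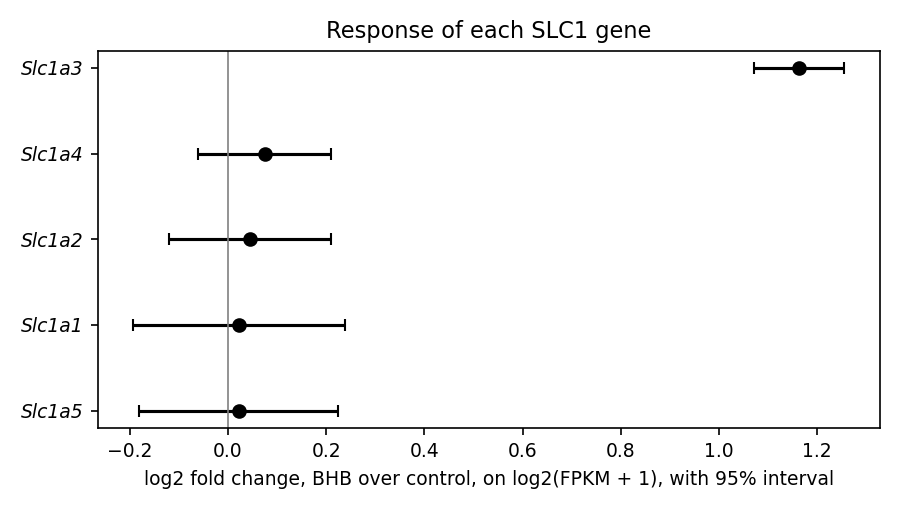
Log2 fold change of each SLC1 gene, BHB over control on the log2(FPKM + 1) scale, with 95% intervals from the limma fit over all genes (3 libraries per group). The interval of Slc1a3 runs from 1.07 to 1.26, and the intervals of the other genes include 0 and end at or below 0.24.

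The groups did not overlap in Slc1a3 and overlapped in the other 4 genes, while 10.9% of all genes tested had groups that did not overlap. All 5 genes had a log2 fold change above 0 with every library included, as did 51.5% of the genes tested, and those of Slc1a1 and Slc1a5 changed sign when single libraries were left out, as given above. The median of the 5 log2 fold changes was 0.05, against 0.0029 over all genes tested.

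Whether Slc1a3 responded differently from its relatives was tested directly, as the difference of log2(FPKM + 1) between Slc1a3 and each other member within a library. Against Slc1a2 this difference was 6.01, 6.10 and 5.94 in BHB libraries 1 to 3, against 4.92, 4.87 and 4.91 in control libraries 1 to 3. The values were higher in 3 of 3 BHB libraries than in any control, and the group means differed by 1.12. The corresponding gaps were 1.14 against Slc1a1, 1.09 against Slc1a4 and 1.14 against Slc1a5, again with no overlap of the groups. Each of these 4 exact two-sided permutation tests gave p = 0.1, the smallest possible value here, and 0.1 after Benjamini-Hochberg adjustment over the 4. No such test could fall under 0.05, so they cannot decide whether the responses differ. Slc1a3 is the member that passed on these same values, and all 4 comparisons reuse them. The gaps therefore largely restate its own log2 fold change of 1.16.

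The order of the family was the same in all 6 libraries, with Slc1a3 highest, then Slc1a4, Slc1a2, Slc1a1 and Slc1a5. Slc1a3 exceeded Slc1a4 by 23.9 ± 1.43-fold with BHB and 11.2 ± 0.760-fold in controls (SD, n = 3 each). Its ratio to Slc1a2, the other main astrocyte glutamate carrier, was 75.5 ± 5.31 with BHB and 34.8 ± 0.469 in controls. Slc1a4 held 3.17 ± 0.367 times the FPKM of Slc1a2 with BHB and 3.10 ± 0.210 times in controls. The closest neighbours were Slc1a2 and Slc1a1, whose ratio lay between 1.05 and 1.34 with BHB and between 1.02 and 1.39 in controls. Slc1a1 in turn had 2.01 ± 0.105 times the FPKM of Slc1a5 with BHB and 2.04 ± 0.394 times in controls. Within either group the ranges of neighbouring genes did not overlap.

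Summed over the 5 genes, the family had 500.0, 478.3 and 484.9 FPKM in BHB libraries 1 to 3, against 236.5, 228.8 and 236.3 FPKM in control libraries 1 to 3. The gain in the mean was 253.9 FPKM, nearly all of it Slc1a3. Without Slc1a3 the other 4 genes summed to 32.5 ± 0.469 FPKM with BHB and 31.2 ± 1.11 FPKM in controls (SD, n = 3 each). Slc1a3 alone took 0.125% ± 0.00386 of all FPKM in a BHB library and 0.0564% ± 0.00222 in a control library.

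As a share of the family total, Slc1a3 held 93.6%, 93.1% and 93.3% in BHB libraries 1 to 3, against 86.5%, 86.1% and 87.3% in control libraries 1 to 3. The mean share was 6.67 percentage points higher with BHB. Every other member held a smaller share with BHB, although its own FPKM did not pass the test. Slc1a4 held 3.92% ± 0.222 with BHB and 7.73% ± 0.463 in controls. Slc1a2 held 1.24% ± 0.0873 with BHB and 2.49% ± 0.0284 in controls. Slc1a1 held 1.01% ± 0.0689 with BHB and 2.09% ± 0.336 in controls, and Slc1a5 held 0.505% ± 0.0287 with BHB and 1.04% ± 0.129 in controls (SD, n = 3 each). The shares restate the FPKM values of the 5 genes, so they were not tested.

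Among the 3 glutamate carriers alone, Slc1a3 made up 97.6% ± 0.0515 with BHB and 94.98% ± 0.394 in controls, and Slc1a2 made up 1.30% ± 0.0895 with BHB and 2.73% ± 0.0281 in controls. With Slc1a3 set aside, the shares of the remaining genes differed between groups by less than 1 SD. Slc1a4 then held 58.6% ± 1.17 with BHB and 57.9% ± 2.04 in controls, and Slc1a2 held 18.6% ± 1.71 with BHB and 18.7% ± 0.936 in controls (SD, n = 3 each).

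**Figure D4:**
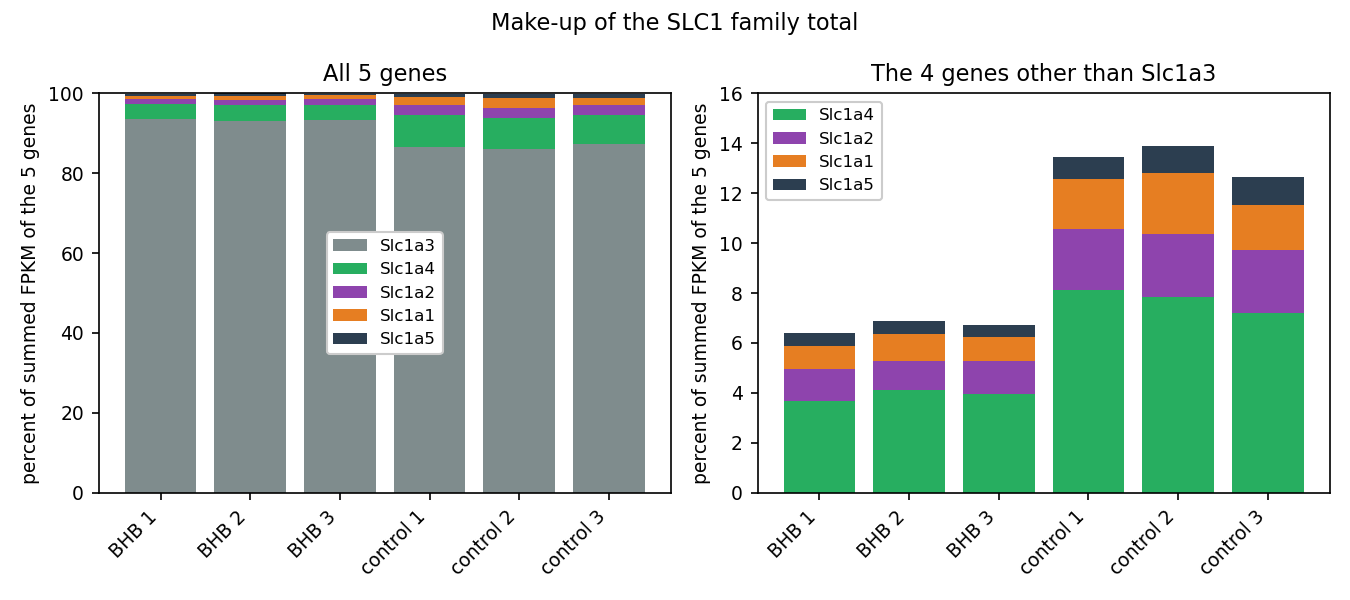
Percent of the summed FPKM of the 5 SLC1 genes held by each gene, in BHB libraries 1 to 3 (left bars) and control libraries 1 to 3 (right bars), for all 5 genes (left panel) and without Slc1a3 on a shorter axis (right panel). Slc1a3 holds 93.1% to 93.6% with BHB and 86.1% to 87.3% in controls, and the other genes shrink together.

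A pair of further SLC1 symbols in the table were not members. Slc1a6, the gene of the Purkinje cell carrier EAAT4, was listed at 0 in 5 libraries and at 0.0337 FPKM in control 1. Slc1a7, whose human counterpart is the retinal carrier EAAT5, reached at most 0.0725 FPKM. Neither was tested.

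The deposited numbers of the 2 classical astrocyte carriers differ in form from those of the rest of the family. Values of Slc1a1, Slc1a4 and Slc1a5 have at most 6 decimals, while those of Slc1a2 and Slc1a3 have more than 6, as do 57.4% of the genes tested. Of the 7 genes that passed, 5 have more than 6 decimals and 2 have at most 6. RefSeq (GRCr8) lists 4 transcripts for Slc1a3, 6 for Slc1a2, 2 each for Slc1a4 and Slc1a5, and 1 for Slc1a1. The sources used here do not say how transcripts were combined into a gene value, and the part of that step in the Slc1a3 difference was not tested. The order, ratios and shares across the family rest on that step too, since they set Slc1a2 and Slc1a3 beside the other members.

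The sequence just before the annotated start is shown for Slc1a3, which passed, and for Slc1a2 and Slc1a4, which did not. Whether these sequences bear on the response to BHB was not tested. RefSeq promoter windows (build GRCr8, whereas the expression values were made on rn6) matched 3 of the 5 members, and the 250 bases before the first listed start are printed, 5′ to 3′ on the gene's strand. Slc1a3 has 3 listed starts, Slc1a2 has 2 and Slc1a4 has 1, and for each gene only the first is described here. Capitals mark matches to the motifs named after the sequences. Slc1a3 lies on the minus strand at chr2:59557809-59558058, Slc1a2 on the plus strand at chr3:109459859-109460108 and Slc1a4 on the minus strand at chr14:98761563-98761812.
Slc1a3: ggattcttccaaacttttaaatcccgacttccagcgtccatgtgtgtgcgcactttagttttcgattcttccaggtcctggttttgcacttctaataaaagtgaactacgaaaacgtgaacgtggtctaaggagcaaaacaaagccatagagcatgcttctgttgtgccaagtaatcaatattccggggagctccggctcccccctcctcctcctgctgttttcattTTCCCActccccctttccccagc
Slc1a2: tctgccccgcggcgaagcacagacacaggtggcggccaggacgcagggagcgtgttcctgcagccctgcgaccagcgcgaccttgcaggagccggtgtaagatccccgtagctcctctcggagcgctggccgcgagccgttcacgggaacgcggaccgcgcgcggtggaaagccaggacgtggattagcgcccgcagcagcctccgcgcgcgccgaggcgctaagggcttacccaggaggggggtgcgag
Slc1a4: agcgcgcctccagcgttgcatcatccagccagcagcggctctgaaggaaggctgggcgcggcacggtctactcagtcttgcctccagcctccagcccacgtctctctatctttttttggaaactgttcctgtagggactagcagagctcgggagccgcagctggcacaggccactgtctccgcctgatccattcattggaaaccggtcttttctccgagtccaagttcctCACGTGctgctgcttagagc

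The base composition of these windows differed widely. G and C made up 48.0% of the Slc1a3 window, with 9 CG pairs, 71.2% of the Slc1a2 window, with 33, and 58.8% of the Slc1a4 window, with 14. The median over 33469 windows of the same length was 51.2%, with 5 CG pairs. Both strands were searched for 4 motifs. The AP-1 motif TGANTCA (6.34% of all windows) and the cAMP response element TGACGTCA (1.59%) had no match in the 3 windows. The RBPJ core TGGGAA, the target of Notch signalling, matched once near the first listed Slc1a3 start, on the reverse strand. It is found in 22.1% of all windows. The E-box CACGTG matched once in Slc1a4 and in 5.59% of all windows. No match overlapped another.

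Genes that work with these carriers were then read from the same fit. Of 67 distinct tested genes in 8 lists of enzymes, pumps, partners and regulators, none passed in limma. At an unadjusted p under 0.05 there were 5 of 67, or 7.46%, with 3 higher and 2 lower, beside 5.59% of all genes tested, of which 3.45% were higher and 2.14% lower. Their log2 fold changes were at most 0.37 in size, with a median of 0.03.

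In the glutamate-glutamine cycle none of 8 tested genes passed, and none had an unadjusted p under 0.05. Glul, the synthetase that turns glutamate into glutamine in astrocytes, was the most abundant, at 258.0 ± 10.1 FPKM with BHB and 245.0 ± 3.26 FPKM in controls (SD, n = 3 each). Its log2 fold change was 0.07. Got2, the mitochondrial aspartate aminotransferase, had a log2 fold change of 0.06. The neutral amino acid carriers Slc38a1 and Slc38a2 had log2 fold changes of -0.07 and -0.30. For Slc38a2, BHB 3 stood apart at 33.6 FPKM, while the other libraries held 63.7 to 72.1 FPKM. Groups did not overlap in 3 of the 8 genes, beside 10.9% of all genes tested. These were Glul and Got2, higher with BHB, and Slc38a1, lower with BHB.

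Of 4 tested genes among the other glutamate carriers, none passed or had an unadjusted p under 0.05. They were mitochondrial carriers of the SLC25 family, led by Slc25a18 at 24.7 FPKM with BHB and 24.0 FPKM in controls. Slc25a22, a glutamate carrier of mitochondria, had the largest log2 fold change at 0.33 (limma adjusted p = 0.890), and control 1 lay low at 3.44 FPKM. The vesicular transporters Slc17a6, Slc17a7 and Slc17a8 and the cystine-glutamate exchanger gene Slc7a11 stayed under the minimum and were not tested.

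The sodium pump keeps the gradient that drives glutamate uptake, and none of 9 tested pump and ion genes passed. Slc8a1, the sodium-calcium exchanger, had a log2 fold change of -0.19 with an unadjusted p of 0.0115 (limma adjusted p = 0.881), at 14.0 ± 0.551 FPKM with BHB and 16.2 ± 0.860 FPKM in controls (SD, n = 3 each). The pump subunit genes Atp1b2 and Atp1b1 had log2 fold changes of -0.09 and 0.05.

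Among 14 tested binding and trafficking partners none passed in limma, and 1 was under 0.05 before adjustment. That gene was Pick1, whose PDZ protein binds a splice form of GLT-1, with 8.78 FPKM under BHB and 7.89 FPKM in controls (log2 fold change 0.14, limma adjusted p = 0.881). Arl6ip5, a binding partner that restrains EAAC1, and Slc9a3r1, a scaffold that anchors GLAST, had log2 fold changes of 0.06 and 0.07. Ajuba, a GLT-1 binding protein, had 0.06, and the most abundant partner, the septin gene Sept2, had -0.01.

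Of 13 tested transcription and signalling regulators none passed in limma, and 1 was under 0.05 before adjustment. Nfkb1, a subunit of NF-kB, had 21.4 ± 0.0703 FPKM with BHB and 18.4 ± 1.46 FPKM in controls (SD, n = 3 each). The log2 fold change was 0.21 (unadjusted p = 0.0101, limma adjusted p = 0.881). The stress regulator gene Atf4, the most abundant of the list, had a log2 fold change of 0.11. The GC-box factor gene Sp1 and the PACAP receptor gene Adcyap1r1 had -0.08 and -0.17.

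Genes tied to the ASCT exchangers did not pass either. None of 10 tested genes of serine synthesis and neutral amino acid exchange passed in limma, and 1 was under 0.05 before adjustment. Slc7a10, a serine and glycine exchanger, had 2.04 ± 0.274 FPKM with BHB and 2.65 ± 0.308 FPKM in controls (SD, n = 3 each). The log2 fold change was -0.27 (unadjusted p = 0.0292, limma adjusted p = 0.881). Phgdh and Psph, enzymes of serine synthesis, had log2 fold changes of 0.08 and 0.19, and Slc3a2, the heavy chain shared by several exchangers, had 0.15.

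Slc1a4 and Slc1a5 are known targets of the amino acid stress factor ATF4, and none of 7 tested ATF4 target genes passed in limma. Atf3, a stress-induced transcription factor, had an unadjusted p of 0.0127 (limma adjusted p = 0.881), at 7.98 ± 0.597 FPKM with BHB and 6.01 ± 1.12 FPKM in controls (SD, n = 3 each). Sesn2, Asns and Atf5 had log2 fold changes of -0.18, 0.12 and -0.10. Of the GABA, glycine and taurine transporters 3 were tested, none passed or had an unadjusted p under 0.05, and the most abundant, the taurine carrier Slc6a6, had 4.84 FPKM with BHB and 4.68 FPKM in controls.

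**Figure D5:**
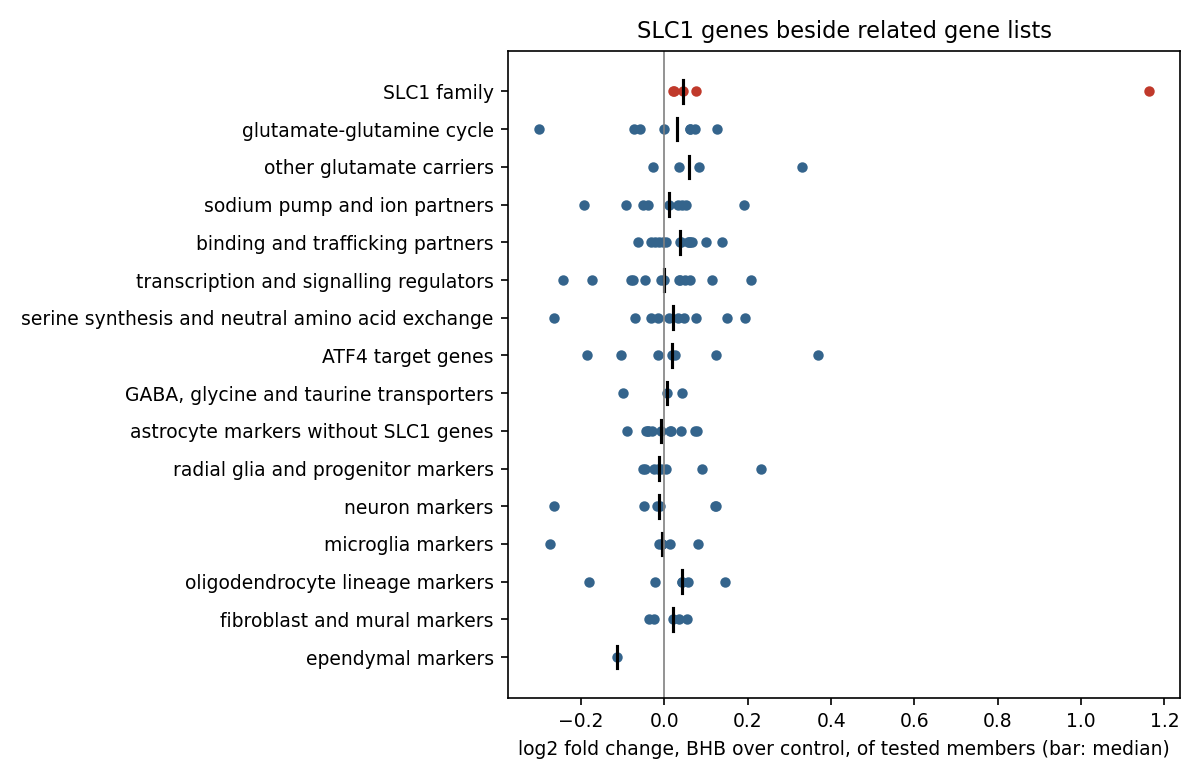
Log2 fold change, BHB over control, of each tested gene in the SLC1 family (red) and in related gene lists (blue), with a bar at each list's median. Slc1a3 lies at 1.16, while the tested genes of the pathway lists stay within 0.37 of 0.

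The cells carried astrocyte genes in both groups. Astrocyte markers other than SLC1 genes summed to 4874 to 4889 FPKM with BHB and 4707 to 4974 FPKM in controls, and none of the 11 tested passed in limma or was under 0.05 before adjustment. Radial glia and progenitor markers, whose cells also carry GLAST, summed to 2962 to 3007 FPKM with BHB and 2926 to 3098 FPKM in controls. Fabp7 stands in both lists and was the most abundant gene of each, at 2304 FPKM with BHB and 2319 FPKM in controls. The astrocyte and progenitor sums therefore share their largest term. A shift in less abundant markers would hardly show in them. None of the 8 radial glia and progenitor markers passed or had an unadjusted p under 0.05. The astrocyte connexin gene Gjb6 was under 1 FPKM.

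Marker lists of other cells had summed levels that overlapped between the groups. Fibroblast and mural markers were high, summing to 4623 to 5004 FPKM with BHB and 4468 to 4843 FPKM in controls, mostly through Tagln and Acta2. The collagen genes Col1a2 (266.2 FPKM with BHB and 270.9 FPKM in controls) and Col1a1 (100.4 and 98.8 FPKM) were also well expressed. Pdgfrb had 26.2 FPKM with BHB and 26.8 FPKM in controls, while the fibroblast genes Dcn and Lum were near 0. Neuron markers summed to 84.9 to 86.8 FPKM with BHB and 85.8 to 88.7 FPKM in controls. Microglia markers summed to 28.01 to 28.95 FPKM with BHB and 28.03 to 30.29 FPKM in controls. Oligodendrocyte lineage markers summed to 44.4 to 49.2 FPKM with BHB and 45.7 to 49.1 FPKM in controls. Ependymal markers summed to 29.6 to 32.7 FPKM with BHB and 32.2 to 35.1 FPKM in controls. Nearly all of this was Foxj1 (31.1 FPKM with BHB and 33.8 FPKM in controls, log2 fold change -0.11), the only member tested. The other ependymal markers were under 1 FPKM, with Tmem212 and Pifo listed at 0 in all libraries. Endothelial markers stayed under 1 FPKM in sum in every library, with Cldn5 listed at 0. In limma no tested marker passed. Groups did not overlap in 1 of 6 tested neuron markers, Gad1 (1.13 FPKM with BHB and 1.57 FPKM in controls). Of 6 tested microglia markers, 2 did not overlap. These were Cx3cr1 (4.66 FPKM with BHB and 5.84 FPKM in controls) and Aif1 (5.22 FPKM with BHB and 4.87 FPKM in controls). The astrocyte markers Glul and Sox9 and the progenitor marker Nes did not overlap either. Over all 16 lists, pathway lists included, 14 of 106 distinct tested genes (13.2%) did not overlap, beside 10.9% of all genes tested. Gad1 and Cx3cr1 were the markers under 0.05 before adjustment. Over the 16 lists 7 genes (6.60%) were, beside 5.59% of all genes tested.

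The genes whose pattern over the 6 libraries was most like that of Slc1a3 were sought among tested genes with a mean of at least 10 FPKM, by Pearson correlation of log2(FPKM + 1). Of 6400 genes ranked, the highest correlations were those of Apeh (0.99), Prtfdc1 (0.99), Cib1 (0.98), Lmna (0.97) and Map1lc3a (0.97). Prtfdc1 had 43.3 ± 0.756 FPKM with BHB and 31.3 ± 1.01 FPKM in controls (SD, n = 3 each), and was the only one of the 5 to pass in limma (adjusted p = 0.0198). The ratio of means was 1.38 for Prtfdc1, 1.16 for Apeh and 1.15 for Map1lc3a, against 2.25 for Slc1a3. These correlations rest on 6 libraries in 2 groups, and 15 genes reached 0.95 or more. Genes picked for likeness to Slc1a3 differ between the groups largely by that choice.

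The genes most like each other member were picked in the same way. Those of Slc1a2 were Apaf1, Ogt and Tcf12 (0.94 to 0.96), and those of Slc1a1 were Csdc2, Taf10 and Cox5b (0.97 to 0.98). Slc1a4 was closest to Rabggta, Rbms2 and Rnf10 (0.98 to 0.99), and Slc1a5 to Tfrc, Rnf138 and Strada (0.98 each). None of these genes passed in limma, and their log2 fold changes lay between -0.0018 and 0.12.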

How the data were processed

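FPKM values for the 6 libraries come from 1 table that the authors deposited, and libraries were grouped here by their treatment labels. Per the submitters' processing notes, bcl2fastq 2.0, HISAT2, StringTie and DESeq2 were used with the rn6 build, with no roles or settings given. Read depth is unknown. The value of 1 read, estimated from genes under 0.1 FPKM, lay between 0.850 and 1.01 of that in control 1, sums of FPKM were 354565 to 367448, and libraries correlated at 0.990 to 0.993. FPKM are not counts, so limma 3.58.1 (R 4.3.3; lmFit, eBayes with trend, two-sided) was run on log2(FPKM + 1) of genes reaching 1 FPKM in 3 or more libraries, with Benjamini-Hochberg adjustment over every gene tested. The fit was tested on simulated data. Exact permutation tests used SciPy 1.17.1. The members and lists were chosen with earlier results of these data known. In each list the tested genes with the smallest p (up to 4), the most abundant gene and any gene that passed are named, and the nearest genes are the 5 (Slc1a3) or 3 (others) most correlated. Some genes selected in this way are not reported here.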

Additional observations from a re-analysis of the deposited data

How the results depend on the processing

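Alternatives covered the pseudocount, the minimum FPKM, scaling, quantile normalization, the eBayes trend, array weights, a replicate block and leaving out each library. Slc1a3 passed in all 15, with log2 fold changes of 1.13 to 1.18 and limma adjusted p of 1.07e-05 to 9.42e-04. Slc1a2 and Slc1a4 stayed above 0 and did not pass in any (0.01 to 0.10 and 0.04 to 0.12). Without single libraries Slc1a1 ran from -0.0544 to 0.113 and Slc1a5 from -0.0464 to 0.0777, and neither passed. Libraries with the same replicate number did not consistently deviate together from their group means (r = -0.09, 0.16 and -0.15), so no pairing was used. Among pairs with unlike numbers, BHB 1 with control 3 (0.20) and BHB 3 with control 1 (0.19) were positive. The rest with unlike numbers ran from -0.12 to -0.04. With BHB 2 and control 2 (0.16), the positive pairs take in each library once. Whether libraries were matched under another numbering was not tested. With the replicate block 2 genes were called over the table instead of 7, with fewer residual degrees of freedom, and Slc1a3 had an adjusted p of 9.42e-04. Without the trend the number was 4, for which the cause was not tested. It ran from 5 to 10 when single libraries were left out. The gap between the responses of Slc1a3 and the other members ran from 1.03 to 1.23. The gain in the Slc1a3 share was 6.39 to 7.01 percentage points without single libraries and 2.66 over the 3 glutamate carriers, a smaller total by construction. Of 209 list medians, 188 moved by less than the spread between libraries. Rescaling values by the number of transcripts combined was not run, since at 10 significant digits that number could not be recovered. Without counts, the precision of low genes such as Slc1a5 is known only from the spread between libraries.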
